A study of Mus musculus with 63 samples.

Results

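β cells sorted from diabetic NOD-ICR mice were compared with β cells of ICR adults by RNA sequencing. The comparison covers 25 of the 63 libraries of the series, chosen by their labels: 4 diabetic libraries, called T1D here, and 21 wild-type ICR adults, called Adult. A further 7 libraries of non-diabetic NOD-ICR mice (T1ND) served to place the T1D values. All animals of the 3 groups were Cherry/+; Ins2-Cre/+, so that Cre driven by the insulin 2 promoter switched on mCherry, and mCherry-positive cells were sorted from digested islets. NOD mice develop autoimmune diabetes spontaneously. The T1D animals (3 females and 1 male) were 98 to 150 days old. Their labelled blood glucose was 356, 358 and 311 mg/dL in T1D 2, 3 and 4, and above 600 mg/dL in T1D 1. The Adult animals (11 females and 10 males) were 84 to 364 days old with a blood glucose of 103 to 190 mg/dL. The T1ND animals (5 females and 2 males) were 82 to 212 days old with a blood glucose of 108 to 245 mg/dL. Strain, autoimmunity and hyperglycaemia differed together between T1D and Adult, and their parts in a difference cannot be told apart.

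β cells secrete the islet's insulin. They take up glucose through Slc2a2, metabolise it, close ATP-sensitive potassium channels and release insulin granules, under transcription factors such as Pdx1, Mafa and Nkx6-1. In autoimmune diabetes immune cells enter the islet, and interferons act on β cells, which then display more MHC class I to T cells. Promoters of interferon targets commonly hold an interferon-stimulated response element (ISRE) or a gamma-activated site (GAS). Txnip, an arrestin-family gene that responds to glucose, has a carbohydrate response element (ChoRE), to which ChREBP, the product of Mlxipl, binds.

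The promoters of 6 genes that were higher in T1D are shown because they hold these elements. Each is the 250 bases before the gene's start, from RefSeq on GRCm38.p6. Capitals mark the ISRE (GAAANNGAAA), the GAS (TTCNNNGAA) or, for Txnip, the ChoRE (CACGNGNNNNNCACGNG), searched on both strands. Irf1 has a second window, which held neither an ISRE nor a GAS.
Igtp (chr11:58199306-58199555, plus strand): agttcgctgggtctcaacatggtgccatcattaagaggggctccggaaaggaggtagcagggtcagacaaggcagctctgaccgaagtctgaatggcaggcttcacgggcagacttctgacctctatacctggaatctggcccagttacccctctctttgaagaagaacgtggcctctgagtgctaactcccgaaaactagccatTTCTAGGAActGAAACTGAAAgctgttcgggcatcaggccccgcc
Tgtp2 (chr11:49064213-49064462, minus strand): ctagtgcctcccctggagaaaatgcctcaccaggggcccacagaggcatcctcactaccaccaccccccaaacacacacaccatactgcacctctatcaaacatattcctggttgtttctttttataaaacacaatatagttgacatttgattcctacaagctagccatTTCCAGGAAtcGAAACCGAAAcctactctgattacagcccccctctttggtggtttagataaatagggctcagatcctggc
Gbp2 (chr3:142620413-142620662, plus strand): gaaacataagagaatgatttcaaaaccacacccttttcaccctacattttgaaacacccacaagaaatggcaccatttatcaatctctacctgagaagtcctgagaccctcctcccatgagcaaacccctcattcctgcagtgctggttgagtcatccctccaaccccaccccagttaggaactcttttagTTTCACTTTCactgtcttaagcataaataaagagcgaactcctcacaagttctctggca
Cxcl10 (chr5:92348890-92349139, minus strand): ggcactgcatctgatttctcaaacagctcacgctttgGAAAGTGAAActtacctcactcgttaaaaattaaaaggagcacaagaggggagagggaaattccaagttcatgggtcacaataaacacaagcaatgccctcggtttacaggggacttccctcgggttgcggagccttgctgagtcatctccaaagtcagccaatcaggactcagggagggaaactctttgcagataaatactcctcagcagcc
Irf1 (chr11:53769764-53770013, plus strand): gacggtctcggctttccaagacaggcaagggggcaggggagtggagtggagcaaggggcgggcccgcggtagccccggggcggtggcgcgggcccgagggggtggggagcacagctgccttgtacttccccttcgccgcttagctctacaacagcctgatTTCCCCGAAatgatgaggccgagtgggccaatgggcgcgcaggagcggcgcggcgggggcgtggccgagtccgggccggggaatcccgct
Txnip (chr3:96557707-96557956, plus strand): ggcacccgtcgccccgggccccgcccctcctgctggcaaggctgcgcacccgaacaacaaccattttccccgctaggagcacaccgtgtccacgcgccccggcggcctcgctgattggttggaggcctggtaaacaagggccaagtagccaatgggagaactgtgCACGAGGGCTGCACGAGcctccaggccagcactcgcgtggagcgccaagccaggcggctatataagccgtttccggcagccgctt
The GAS and ISRE of Igtp, and those of Tgtp2, stood side by side without overlapping. For the shares that follow, the window also took in the 50 bases after the start. An ISRE was found in 9 of 9 interferon-induced GTPase genes with a window, in 11 of 23 antiviral effectors and in 5 of 17 MHC class I genes. It stood in 3.65% of all 12755 tested genes with a window, in 7.49% of those called higher in T1D and in 2.84% of those called lower. The GAS was found in 6 of the 9 GTPase genes and in 8.3% of all genes with a window. The ChoRE stood in 0.102% of all genes with a window. A match describes letters and not binding.

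The T1D libraries held 38575681 to 43215224 expected counts and the Adult libraries 28402805 to 44485028. Over the 2000 most abundant genes, pairs of T1D libraries correlated at 0.905 to 0.961, and T1D with Adult libraries at 0.218 to 0.825. Insulin transcripts, which define the sorted cells, made up 14.2 to 34% of T1D counts and 18.9 to 56.7% of Adult counts. Markers of acinar cells, the enzyme-secreting cells of the exocrine pancreas, took 15.6%, 9.57%, 30.6% and 19.3% of counts in T1D 1 to 4 and 0.0219 to 26% in Adult. Myeloid markers took 0.497%, 0.358%, 0.0763% and 0.224% in T1D 1 to 4 and 0.00243 to 0.0249% in Adult. All 20 myeloid markers reached 1 CPM in each T1D library. CPM are counts divided by the library's total after TMM adjustment, so they differ from the raw shares of counts. Of 17 T and NK cell markers, 3 did so (Cd4, Lck and Ccl5), and Gzma and Prf1 had no count in T1D. In bulk libraries, fewer cells of a type and less RNA per cell cannot be told apart.

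Of 16092 genes tested, 5399 (33.55%) were called changed between T1D and Adult at an adjusted p below 0.05. T1D was higher in 2974 genes (18.48%) and lower in 2425 (15.07%). Of these, 1611 rose and 1084 fell by 2-fold or more. The 18.48% and 15.07% are the background for all counts below of list members called higher or lower than in Adult. Every T1D library lay above every Adult library in 927 genes (5.761%) and below in 452 (2.809%), the background for the counts of members without overlap. Differences are given as log2 of T1D over Adult with the standard error of the fit, and levels as CPM, which are compared only within a gene. Among Qiagen libraries alone 4254 genes were called, and among TRIzol libraries, 940. The TRIzol fit held T1D 1 as its single T1D library, which was assumed to vary like the other groups, so it has no replicate check in T1D. With the summed myeloid marker level as a term in the model, 342 genes were called (205 higher and 137 lower). That sum was 1610 to 4770 CPM in T1D and 28.2 to 283 CPM in Adult, so the term and the group cannot be told apart in this comparison.

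Interferon signalling genes rose in 14 of 18 tested cases and fell in 1, with a median of 1.23 against -0.044 over all genes tested. Irf1, a transcription factor that interferons induce, was at 241, 125, 165 and 143 CPM in T1D 1 to 4 and at 14.1 to 31.3 CPM in Adult (median 18.6). All 4 T1D values lay far above the Adult range. The difference was 3.05 ± 0.20 (adjusted p = 9.7e-19). Irf9, part of a complex that binds the ISRE, rose by 2.11 ± 0.22 (adjusted p = 1.62e-11). The type I interferon receptor chain Ifnar2 rose by 1.76 ± 0.18. With the summed myeloid marker level as a term 4 of the 18 were called higher, and with the T and NK cell term 5. Ifnar2 was not called with the myeloid term (0.75, adjusted p = 0.0767). In 10 of the 18 genes every T1D library was above every Adult library.

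Interferon-induced GTPases, which act on the vacuoles of intracellular microbes, had a median of 6.10, the highest of the 34 lists. 14 of 15 rose, 0 fell, and 13 had no overlap with Adult. Igtp was at 795, 565, 1030 and 477 CPM in T1D 1 to 4 and at 5.29 to 13.6 CPM in Adult (median 9.11). The highest value was that of T1D 3, and no T1D value approached the Adult range. Igtp differed by 6.31 ± 0.29 (adjusted p = 4.37e-25), and Irgm1, a regulator of this family, by 4.72 ± 0.25 (adjusted p = 1.8e-22). Tgtp2 reached 954 to 1380 CPM in T1D and at most 2.93 CPM in Adult (9.94 ± 0.56, adjusted p = 8.76e-21). The guanylate-binding protein Gbp2 reached 302 to 537 CPM in T1D and at most 1.12 CPM in Adult (9.58 ± 0.58, adjusted p = 1.67e-19). Members of this family have near-identical copies that can share reads, so the value of Tgtp2 is uncertain.

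Of 33 antiviral effectors, 27 rose and 0 fell, with a median of 2.97 and 24 without overlap. Ubd, a ubiquitin-like modifier, was at 126, 59.8, 115 and 140 CPM in T1D 1 to 4. No Adult library exceeded 0.372 CPM, and 6 had no count. The fitted difference was 10.91 ± 0.60 (adjusted p = 2.05e-21). Zbp1, a sensor of nucleic acids, was at 57.9 to 104 CPM against at most 0.379 CPM (9.77 ± 0.69, adjusted p = 3.28e-17). Bst2, which tethers virions to the cell, rose by 5.11 ± 0.41, Ly6e by 2.48 ± 0.20 and Ifi27 by 2.47 ± 0.21. T1D and Adult values did not overlap in any of these genes.

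**Figure D1:**
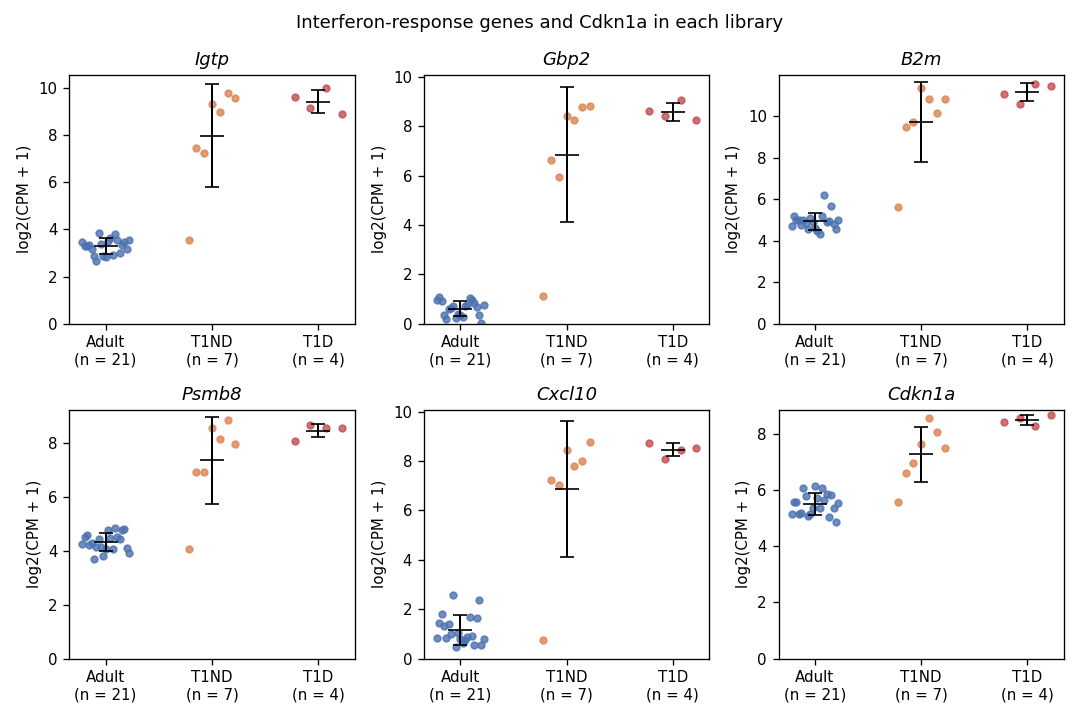
Level of 6 genes as log2(CPM + 1) in each library (points) of Adult, T1ND and T1D, with the group mean and SD of these log values (black bars). In each panel all T1D points lie above every Adult point, and the T1ND points spread from at or near the Adult points to at or near the T1D points.

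All 20 tested genes of MHC class I presentation rose (20 of 20), with a median of 2.64 and 19 without overlap. B2m, the light chain of class I molecules, was at 2160, 1530, 3040 and 2780 CPM in T1D 1 to 4 and at 19.2 to 72.3 CPM in Adult (median 28.8). The groups were far apart, with a difference of 6.33 ± 0.38 (adjusted p = 4.9e-20). The heavy chain H2-D1 was at 3660 to 5120 CPM against 145 to 855 CPM (3.33 ± 0.28, adjusted p = 6.1e-15), and the non-classical H2-Q7 differed by 5.13 ± 0.33. Class I heavy chains resemble one another and vary between strains, so the split of their reads is uncertain. Psmb8, a catalytic subunit of the immunoproteasome that cuts peptides for class I, was at 269 to 399 CPM against 11.8 to 27.8 CPM (4.18 ± 0.26, adjusted p = 7.93e-20).

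MHC class II genes, typical of antigen-presenting immune cells, rose in 11 of 11 cases, with a median of 5.37 and 10 without overlap. H2-Ab1 was at 1030, 1280, 687 and 1080 CPM in T1D 1 to 4 and at 3.29 to 72.1 CPM in Adult (median 19.6). Its lowest T1D value was that of T1D 3, the library with the lowest myeloid share, which had the highest Igtp and B2m. H2-Ab1 differed by 5.58 ± 0.55 (adjusted p = 7.57e-12), H2-Eb1 by 6.80 ± 0.67 and H2-DMa, which loads peptides onto class II, by 3.42 ± 0.30.

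Myeloid markers rose in 20 of 20 cases, with a median of 4.86. Lyz2, the lysozyme of macrophages, was at 2650, 1950, 740 and 1810 CPM in T1D 1 to 4 and at 0.982 to 81.2 CPM in Adult (median 13.9). All T1D libraries lay above Adult (6.66 ± 0.70, adjusted p = 5.12e-11). C1qc, a complement gene of tissue macrophages, differed by 6.14 ± 0.66, the macrophage glycoprotein Cd68 by 5.20 ± 0.55 and the actin-binding protein Aif1 by 6.23 ± 0.60. Of 16 T and NK cell markers tested, 5 rose and 1 fell, beside 18.48% and 15.07% of all genes tested. One of them, Cd4, found on helper T cells and some myeloid cells, was at 2.77 to 16.6 CPM against at most 0.252 CPM (7.04 ± 0.98, adjusted p = 6.32e-08). Cd4 was not called with the myeloid term (1.59, adjusted p = 0.647) or the T and NK cell term (2.65, adjusted p = 0.277), and is itself part of the latter.

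With the myeloid term, 11 of the 15 GTPases, 15 of the 20 class I genes and 10 of the 33 antiviral effectors were called higher. Of the 11 class II genes 0 were, and H2-Ab1 then differed by 0.43 (adjusted p = 0.621). Igtp differed by 5.42 in that fit (adjusted p = 5.3e-12) and B2m by 3.75 (adjusted p = 1.27e-06). With T1D 3 as the only T1D library, 13 GTPases, 19 class I genes and 9 class II genes were called higher. In T1ND 2 the myeloid markers summed to 105 CPM, inside the Adult range, while its GTPases summed to 1560 CPM and its class I genes to 4310 CPM. The highest Adult sums were 273 and 1720 CPM. In T1ND 1, with a myeloid sum of 109 CPM, both sums lay inside the Adult range. T1ND 1 and T1ND 2 were singled out after their values were seen. The myeloid term and the group cannot be told apart, so the cell source of these transcripts was not tested.

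**Figure D2:**
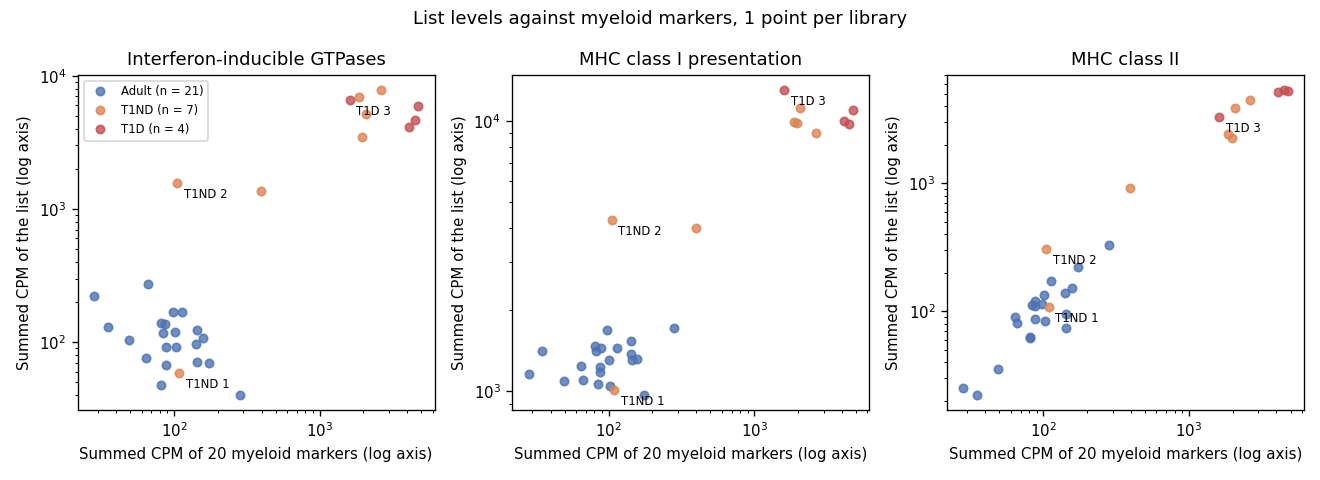
Summed CPM of 3 gene lists (vertical, log axis) against the summed CPM of 20 myeloid markers (horizontal, log axis), 1 point per library of Adult, T1ND and T1D. T1ND 2 lies inside the Adult range of myeloid markers and above it for GTPases and class I genes, and inside it for class II genes.

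Chemokines and NF-kB targets rose in 22 of 28 cases and fell in 0, with a median of 2.50, and 3 were called higher with the myeloid term. Cxcl10, which attracts T cells, was at 430, 273, 352 and 368 CPM in T1D 1 to 4 and at 0.398 to 4.99 CPM in Adult (median 0.9). The groups did not overlap (7.96 ± 0.56, adjusted p = 5.03e-17). Cxcl9, a ligand of the same receptor, was at 49.7 to 90 CPM against at most 0.175 CPM (10.19 ± 0.66, adjusted p = 9.7e-19). With the myeloid term Cxcl10 differed by 5.57 (adjusted p = 8.34e-05) and Cxcl9 by 6.0 (adjusted p = 9.76e-05). The chemokines Ccl8, Cxcl13, Cxcl16 and Ccl5 rose by 10.00 ± 0.72, 9.60 ± 0.90, 4.70 ± 0.44 and 8.45 ± 0.81. Their adjusted p with the myeloid term was 0.0601, 0.148, 0.312 and 0.193. Cxcl13, which attracts B cells, ranged from 24.4 CPM in T1D 3 to 472 CPM in T1D 2.

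Immune ligands, adhesion molecules and death receptors rose in 12 of 18 cases and fell in 2, beside 18.48% and 15.07% of all genes tested. Cd274, the checkpoint ligand PD-L1, was at 122, 54.8, 80.8 and 72.1 CPM in T1D 1 to 4 and at 3.35 to 15.2 CPM in Adult (median 5.83). It differed by 3.56 ± 0.33 (adjusted p = 3.62e-13). Cd40, a receptor for T cell help, rose by 2.41 ± 0.26, and Cd47, which signals against engulfment, by 1.05 ± 0.12. The adhesion molecule Vcam1 rose by 5.83 ± 0.74, and by 1.31 with the myeloid term (adjusted p = 0.623). With that term 2 of the list were called higher and Cd47 was not (0.48, adjusted p = 0.0951). In these 4 genes no T1D library fell into the Adult range.

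The insulin genes were not called. Ins2 was at 137000, 335000, 211000 and 443000 CPM in T1D 1 to 4 and at 158000 to 775000 CPM in Adult (median 297000), with a difference of -0.12 ± 0.32 (adjusted p = 0.8). Ins1 differed by 0.17 ± 0.28 (adjusted p = 0.672). Iapp, the amyloid peptide secreted with insulin, rose by 0.60 ± 0.24 (adjusted p = 0.0474). That call held in 17 of 47 alternative fits and was lost without any 1 T1D library, with an adjusted p of 0.0642, 0.0678, 0.182 and 0.163 in turn.

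β cell maturity markers fell in 8 of 18 cases and rose in 2, beside 15.07% and 18.48% of all genes tested, with a median of -1.13. Ucn3 (chromosome 13, 3940688 to 3945349 in mm10), a peptide that mature mouse β cells secrete and that acts on δ cells, was at 33.9, 123, 60.8 and 150 CPM in T1D 1 to 4. Adult values were 471 to 1080 CPM (median 754), without overlap. The difference was -3.06 ± 0.39 (adjusted p = 8.78e-09), called in 47 of 47 alternative fits. In the series' libraries of embryonic β cells (E18.5) Ucn3 averaged 78.1 ± 4.53 CPM (SD). Pyruvate carboxylase (Pcx), which feeds the mitochondrial cycle, fell by 2.10 ± 0.35 on the log2 scale (adjusted p = 4.27e-06), also without overlap. Of the list, 2 were called lower and 0 higher with the myeloid term, and Pcx was not called (-1.14, adjusted p = 0.139).

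Of 24 β cell transcription factors, 0 rose and 14 fell, with a median of -0.62 and 5 without overlap. Mlxipl was at 16.6, 8.89, 6.3 and 10.3 CPM in T1D 1 to 4 and at 29.7 to 123 CPM in Adult (median 57.7). All T1D libraries were lower (-2.63 ± 0.45, adjusted p = 6.43e-06). Mnx1, a homeobox factor of β cell identity, fell by 1.84 ± 0.32 on the log2 scale (adjusted p = 6.95e-06). Mafa, an activator of the insulin genes, was at 64.2, 9.6, 47.5 and 23.1 CPM in T1D 1 to 4 and at 53 to 192 CPM in Adult (median 133). T1D 1 lay inside the Adult range, and the difference was -1.91 ± 0.51 (adjusted p = 0.00273). Smaller falls were those of Pdx1 (-0.77 ± 0.21), Nkx6-1 (-0.75 ± 0.24) and Pax6 (-0.71 ± 0.17). Without T1D 2 the call of Nkx6-1 was lost (adjusted p = 0.0695).

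Genes of glucose sensing, excitability and receptors fell in 18 of 28 cases and rose in 3, with a median of -0.82. Of all genes tested 15.07% fell and 18.48% rose. The 3 that rose became 1 without any 1 T1D library, or without Adult 2, 3, 12, 13, 15, 18 or 19. Slc2a2, the glucose transporter of mouse β cells, was at 95.8, 99.8, 131 and 160 CPM in T1D 1 to 4 and at 199 to 623 CPM in Adult (median 328). The groups did not overlap (-1.56 ± 0.30, adjusted p = 4.57e-05). Of the incretin receptors, Gipr was at 3.81 to 6.37 CPM against 17.3 to 103 CPM (-3.35 ± 0.49, adjusted p = 1.99e-07), and Glp1r at 11.3 to 36.7 CPM against 30.9 to 433 CPM (-2.59 ± 0.70, adjusted p = 0.00297). The cation channel Trpm5 differed by -2.63 ± 0.36 and the potassium channel Kcnh2 by -1.14 ± 0.21.

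**Figure D3:**
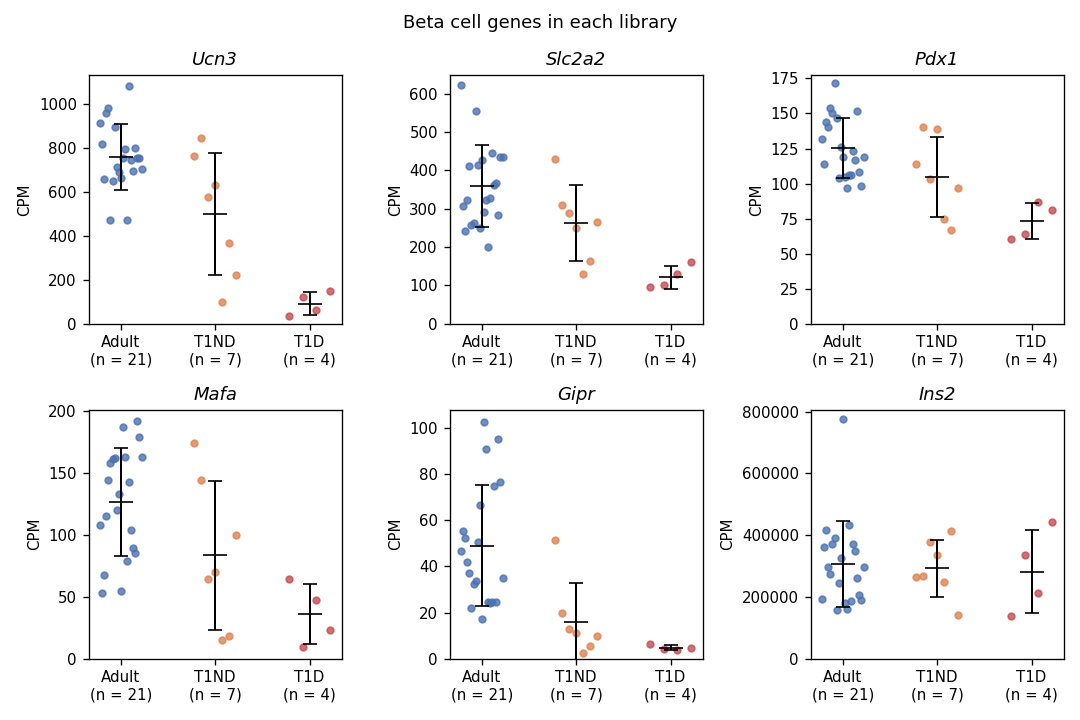
CPM of 6 β cell genes in each library (points) of Adult, T1ND and T1D, with the group mean and SD (black bars). In Ucn3, Slc2a2, Pdx1 and Gipr all T1D libraries lie below every Adult library, in Mafa 1 T1D library overlaps, and Ins2 overlaps across the groups.

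Hormone, granule and exocytosis genes fell in 10 of 28 cases and rose in 3, beside 15.07% and 18.48% of all genes tested. The granule zinc transporter Slc30a8 was at 166, 254, 184 and 320 CPM in T1D 1 to 4 and at 413 to 853 CPM in Adult (median 508). T1D was lower throughout (-1.28 ± 0.26, adjusted p = 0.000123). Vamp2, the vesicle SNARE of insulin release, fell by 0.94 ± 0.17 on the log2 scale, and the granule effector Rph3al by 1.5 ± 0.28. Pam, which amidates peptide hormones, was higher in T1D, at 425 to 822 CPM against 38.2 to 352 CPM (2.47 ± 0.36, adjusted p = 1.91e-07). In non-diabetic T1ND Pam was at 305 to 685 CPM, and T1D minus T1ND was 0.42 (adjusted p = 0.701). With the myeloid term 0 transcription factors and 0 granule genes were called lower, and 2 glucose sensing genes were, Gipr and Trpm5. With T1D 3 as the only T1D library these counts were 1, 1 and 2. Against the 7 Adult libraries with an acinar share inside the T1D range, they were 8, 8 and 10.

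Large falls were also found outside these lists. Rph3a, rabphilin, which binds Rab3 on secretory vesicles, was at 0, 0.28, 0.0489 and 0.179 CPM in T1D 1 to 4 and at 0.881 to 28.1 CPM in Adult (median 12.5). No T1D library reached the Adult range (-6.63 ± 0.94, adjusted p = 9.61e-08). The potassium channel Kcnj12 was at 0.224 to 0.831 CPM against 1.48 to 30.7 CPM (-4.72 ± 0.81, adjusted p = 6.8e-06). Lrrc55, an auxiliary subunit of potassium channels, differed by -4.67 ± 0.87, the opioid precursor Penk by -4.58 ± 1.09 and neuropeptide Y (Npy) by -3.04 ± 0.72. Frzb, a secreted Wnt antagonist, was at 18.4, 21.6, 23.7 and 16.7 CPM in T1D 1 to 4 and at 111 to 333 CPM in Adult. It differed by -3.33 ± 0.36 (adjusted p = 8.75e-11). The homeobox gene Meox1 was at 0.0932 to 0.224 CPM against 1.76 to 10.3 CPM (-5.70 ± 1.13, adjusted p = 6.89e-05). Meox1 was also low in non-diabetic T1ND, at most 0.823 CPM, and T1D minus T1ND was -0.18 (adjusted p = 0.97). T1ND was called lower than Adult in Rph3a (-2.19), Lrrc55 (-3.14), Penk (-2.87), Frzb (-0.84) and Meox1 (-5.52), and not in Kcnj12 or Npy. T1D minus T1ND was called in Rph3a (-4.44, adjusted p = 0.00943), Kcnj12 (-3.77, adjusted p = 0.0131) and Frzb. It was not in Lrrc55, Penk or Npy (adjusted p = 0.33, 0.414 and 0.0793). With the myeloid term only the calls against Adult of Penk, Npy and Meox1 were lost here (adjusted p = 0.131, 0.211 and 0.0808).

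Of 16 genes of the glucose response, 3 were higher and 4 lower, beside 18.48% and 15.07% of all genes tested. These counts were 0 and 0 with the myeloid term. Txnip was at 581, 291 and 341 CPM in T1D 1, 2 and 4, slightly lower in T1D 3, and at 50.5 to 250 CPM in Adult (median 102). Each T1D library lay above every Adult library, and the highest value was that of T1D 1, the animal with the highest labelled glucose. T1D 1 was also the only TRIzol library of T1D and had the highest myeloid share of the group (0.497%). Glucose, extraction and myeloid share cannot be told apart in 1 library. Txnip differed by 1.70 ± 0.32 (adjusted p = 2.84e-05). Its relative Arrdc4 was at 38.4 to 85.8 CPM against 5.38 to 16.4 CPM (2.49 ± 0.28, adjusted p = 3.11e-10), also highest in T1D 1. Neither was called with that term, Txnip at 1.01, adjusted p = 0.34 and Arrdc4 at 1.37, adjusted p = 0.0991. Of 20 glycolysis genes 8 rose, or 5 without T1D 1, and 6 fell. Muscle-type phosphofructokinase (Pfkm) was at 12.7 to 17 CPM against 26.2 to 49.8 CPM (-1.25 ± 0.16, adjusted p = 8.82e-09), and aldolase C (Aldoc) differed by -2.04 ± 0.29. Among glycolysis genes 0 were called higher and 2 lower with the myeloid term.

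Disallowed genes, which healthy β cells keep at low levels, rose in 12 of 29 cases and fell in 0, with a median of 1.36. Ldha, lactate dehydrogenase A, was at 46.8, 34, 37.1 and 41 CPM in T1D 1 to 4 and at 0.557 to 25.2 CPM in Adult (median 6.55). T1D was higher without overlap (2.56 ± 0.52, adjusted p = 0.000103). The focal adhesion protein Zyx rose by 2.35 ± 0.33 and the IgG receptor Fcgrt by 4.17 ± 0.66. With the myeloid term 0 of the 12 were called. Progenitor, fetal and dedifferentiation genes rose in 6 of 21 cases and fell in 1, beside 18.48% and 15.07% of all genes tested. Dlk1, an imprinted gene of fetal tissues, was at 4.43 to 8.39 CPM against 0.191 to 2.8 CPM (2.71 ± 0.43, adjusted p = 1.29e-06), and the tetraspanin Cd81 rose by 1.58 ± 0.25. Aldh1a3, a marker of dedifferentiated β cells, differed by -2.88 ± 1.19 and was not called (adjusted p = 0.0552). It was at 0.448 to 1.65 CPM in T1D, inside the Adult range of 0.126 to 42.3 CPM (median 1.46). Over the alternative fits its difference ran from -5.06 to -0.70. In this list 0 were called higher with the myeloid term, and Dlk1 was at 2.15, adjusted p = 0.101.

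Cdkn1a, the cell cycle inhibitor p21, was at 343, 377, 310 and 406 CPM in T1D 1 to 4 and at 28 to 69.8 CPM in Adult (median 45). T1D lay above Adult throughout (3.01 ± 0.22, adjusted p = 4.55e-17), and the difference was 2.27 with the myeloid term (adjusted p = 3.13e-05). Of 16 genes of cell cycle arrest and senescence, 4 rose and 1 fell, beside 18.48% and 15.07% of all genes tested. In that list 1 was called higher with the myeloid term. Proliferation genes rose in 4 of 29 cases and fell in 1, both below the shares of all genes tested. The count of 4 became 1, 0 and 0 without T1D 2, 3 and 4 in turn. The proliferation marker Mki67 was not called (0.90 ± 0.48, adjusted p = 0.145). Of the proliferation genes, 0 were called higher with the myeloid term.

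Cell death genes rose in 14 of 21 cases and fell in 0, with a median of 1.95. Bid, which links death receptors to mitochondria, was at 7.74, 13.5, 8.31 and 7.6 CPM in T1D 1 to 4 and at 0.284 to 2.61 CPM in Adult (median 1.5). It differed by 2.72 ± 0.32 (adjusted p = 8.2e-10). The pore former Gsdmd rose by 2.83 ± 0.36 and the inflammatory caspase Casp4 by 6.73 ± 0.90, both without overlap. With the myeloid term 2 of these genes were called higher.

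Genes of the integrated stress response rose in 15 of 30 cases and fell in 1. The 15 became 7 without T1D 1 and 9 without T1D 3, 1 with the myeloid term and 2 with the T and NK cell term. Ddit3, which encodes CHOP, was at 62.1, 67.7, 53.8 and 83.9 CPM in T1D 1 to 4 and at 22 to 55.5 CPM in Adult (median 31.3), and T1D 3 lay inside the Adult range (1.04 ± 0.18, adjusted p = 6.73e-06). Trib3, a CHOP target, rose by 1.61 ± 0.28 and the translation repressor Eif4ebp1 by 2.02 ± 0.30. None of these 3 was called with the myeloid term (adjusted p = 0.431, 0.439 and 0.242). Endoplasmic reticulum chaperone and degradation genes rose in 9 of 28 cases, beside 18.48% of all genes tested. The count was 4 without T1D 3 and 1 with the myeloid term. Herpud1, of ER-associated degradation, rose by 1.33 ± 0.23 (adjusted p = 4.72e-06), while the chaperone Hspa5 was not called (0.47 ± 0.21, adjusted p = 0.0794). Antioxidant genes rose in 9 of 22 cases and fell in 1, with rises in Gpx2 (3.50 ± 0.39), Gpx1 (1.76 ± 0.21) and Txn1 (1.51 ± 0.18). Of these genes, 2 were called higher with the myeloid term, Gpx2 at 2.75, adjusted p = 0.00519, while Gpx1 (0.88, adjusted p = 0.11) and Txn1 (0.70, adjusted p = 0.147) were not called. Genes known to respond to tissue dissociation rose in 12 of 20 cases, Klf6 by 1.97 ± 0.30, and 0 were called higher with the myeloid term. The part of the dissociation genes in the other rises was not tested.

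**Figure D4:**
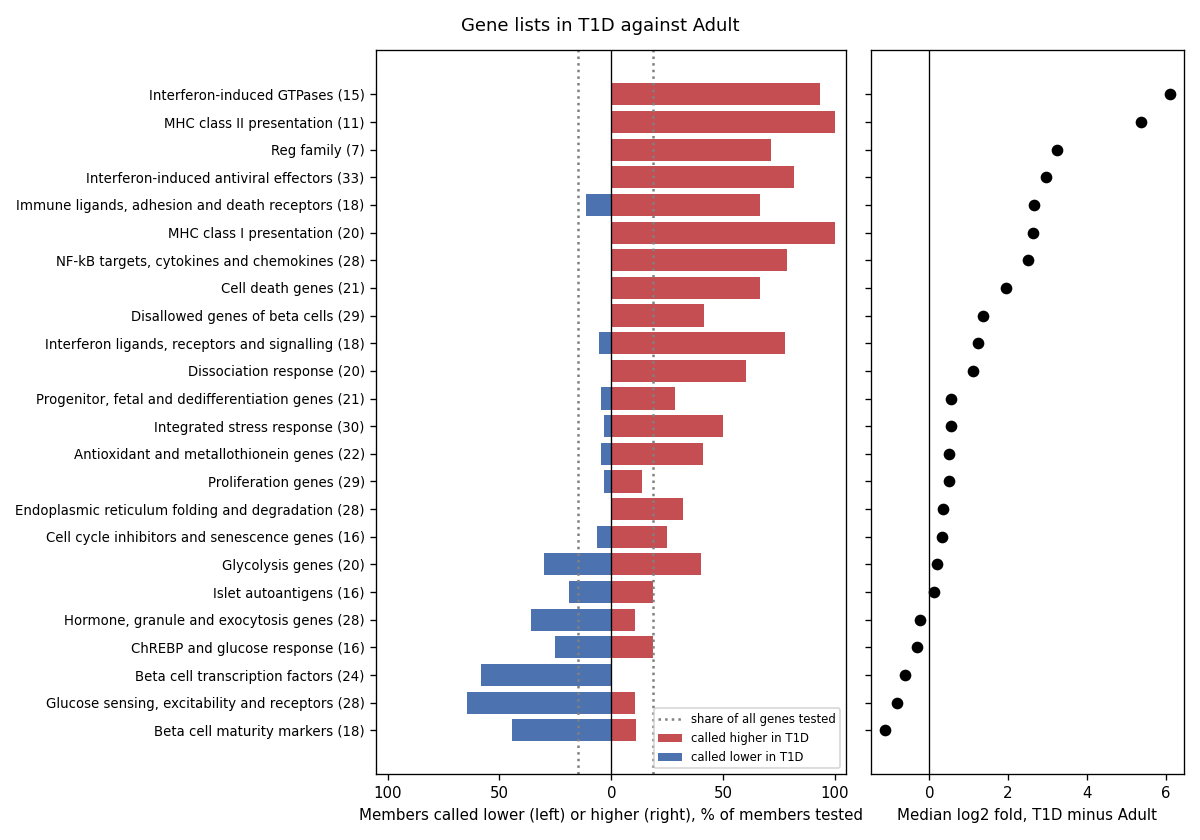
Left, percent of the members of each gene list called lower (left of 0) and higher (right of 0) in T1D than in Adult, with dotted lines at the shares of all genes tested (15.07% and 18.48%). Right, the median log2 difference of each list, which is highest for the interferon-induced GTPases (6.10).

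Genes of neighbouring cell types were measured beside these. Of all genes tested 18.48% were called higher and 15.07% lower, the background for the counts that follow. Acinar markers had a median of 2.00 and 0 of 20 were called, or 5 without Adult 20. Prss2, a trypsinogen, was at 19500, 14600, 77500 and 52000 CPM in T1D 1 to 4 and at 15.7 to 45400 CPM in Adult (median 7510), with overlapping ranges (2.24 ± 1.00, adjusted p = 0.0758). Outside this list the exocrine enzyme genes Try5, Try10, Try4 and Pla2g1b were called higher, with overlapping ranges. They rose by 3.18 ± 0.99, 2.79 ± 1.01, 2.58 ± 0.97 and 2.70 ± 0.91 (adjusted p = 0.01, 0.0284, 0.0346 and 0.017). Try5 was not called without T1D 3 (adjusted p = 0.0533). Of the Reg family, secreted proteins of acinar and stressed islet cells, 5 of 7 rose, or 3 without T1D 1 and 1 without T1D 3. Reg2 was at 52.8, 4.44, 413 and 5.77 CPM in T1D 1 to 4, with T1D 3 far above the rest (4.16 ± 1.00, adjusted p = 0.000898), and was not called without T1D 3 (adjusted p = 0.0966). Spp1, osteopontin, a duct marker that macrophages also make, was at 4460, 5150, 9630 and 4530 CPM in T1D 1 to 4 and at 13.8 to 736 CPM in Adult (median 91.3). It rose by 5.27 ± 0.52 (adjusted p = 5.32e-12), among 3 of 12 duct markers that rose and 2 that fell. Duct markers took 0.572%, 0.488%, 0.522% and 0.311% of counts in T1D 1 to 4 and 0.0623 to 0.141% in Adult. Most of this was Spp1, since the list summed to 5490, 6130, 11000 and 5720 CPM in T1D 1 to 4, and its median difference was 0.26. Of the α, δ and PP cell markers 3 of 12 rose, or 5 without Adult 18, Gc by 3.65 ± 0.54. Among 16 islet autoantigens 3 rose and 3 fell, close to the shares of all genes tested. The 3 that rose became 0 or 1 without any 1 T1D library, or without Adult 1, 2, 3, 7, 8, 12, 13, 15, 17 or 18. The glutamate decarboxylases Gad2 (-3.46 ± 0.81, adjusted p = 0.000616) and Gad1 (-1.93 ± 0.50, adjusted p = 0.00206) were lower. Neither was called with the myeloid term. Gad2 was also lower in T1ND than in Adult (-2.19, adjusted p = 0.00457), and T1D minus T1ND was -1.27 (adjusted p = 0.411).

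T1D differed from T1ND in 206 genes (1.28%), 78 higher and 128 lower, and T1ND from Adult in 2231 (13.86%). Both share libraries with the comparison of T1D and Adult. The count moved down or up with single libraries: it was 71, 35, 102 and 24 without T1D 1, 2, 3 and 4 in turn. Without T1ND 1, 2, 3, 5, 6 and 7 in turn it was 34, 65, 103, 684, 484 and 133. Without T1ND 4 it was 1.01% of the genes tested, near the 1.28% over all libraries. Among Qiagen libraries alone it was 0 by edgeR, with 2428 genes at an unadjusted p below 0.05. Over all libraries 2619 genes had such a p, DESeq2 called 3.58% of genes and voom 1821 genes.

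In the interferon, MHC, immune surface and chemokine lists, 0 of 142 genes were called between T1D and T1ND by edgeR. At an unadjusted p below 0.05 were 23 of the 142. Over all genes tested edgeR called 1.28%, and 16.3% had such an unadjusted p. Of the 142, DESeq2 called 5 and voom 49, beside 3.58% and 11.3% of all genes tested. Igtp was at 10.7, 174, 150, 648, 502, 876 and 755 CPM in T1ND 1 to 7. T1ND 1 lay inside the Adult range, T1ND 2 and 3 between the groups, and T1ND 4 to 7 in or near the T1D range. The T1D minus T1ND difference of Igtp was 0.67, adjusted p = 0.412. Cdkn1a was higher in T1D than in T1ND (1.10, adjusted p = 0.0475).

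Ucn3 was at 96.8 to 844 CPM in T1ND, and T1D was lower (-2.43, adjusted p = 0.000803). The lowest T1ND value was that of T1ND 5, inside the T1D range. Lower in T1D than in T1ND were also Frzb (-2.49, adjusted p = 9.48e-05), Gipr (-2.05, adjusted p = 0.0196), Mlxipl (-1.87, adjusted p = 0.0276), Trpm5 (-1.61, adjusted p = 0.0147), the membrane protein Vstm2l (-1.84, adjusted p = 0.0133) and Jph3, a junctophilin (-1.99, adjusted p = 0.00608). Higher in T1D were Txnip (1.77, adjusted p = 0.018), Arrdc4 (1.53, adjusted p = 0.0252), the fatty acid-binding protein Fabp5 (1.84, adjusted p = 0.02), Sat1, which acetylates polyamines (1.59, adjusted p = 0.00608), and Gsto2, a glutathione transferase (1.66, adjusted p = 0.0307). With the myeloid term edgeR called 1 gene between T1D and T1ND. With only T1D and T1ND libraries in the fit it called 0, as with Qiagen libraries alone. At most 1 of the T1D against T1ND calls named in the text was therefore kept with the myeloid term, and none in those other fits. T1ND 5 had the highest labelled glucose of its group, 245 mg/dL. It was also the oldest animal of the group, at 212 days, and 1 of its 2 males. Glucose, age and sex cannot be told apart in this library. Among the T1ND libraries it had the highest Txnip (313 CPM), Arrdc4 (59.9 CPM), Sat1 (96 CPM) and Gsto2 (17.8 CPM) and the lowest Ucn3, Frzb (21.1 CPM), Gipr (2.59 CPM), Trpm5 (12.5 CPM), Vstm2l (18.8 CPM) and Jph3 (3.96 CPM). It was not the highest in Fabp5 (39.6 CPM, against 63.9 in T1ND 4 and 59.8 in T1ND 7) nor the lowest in Mlxipl (7.79 CPM, against 7.14 in T1ND 6). This library was singled out after its values were seen.

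**Figure D5:**
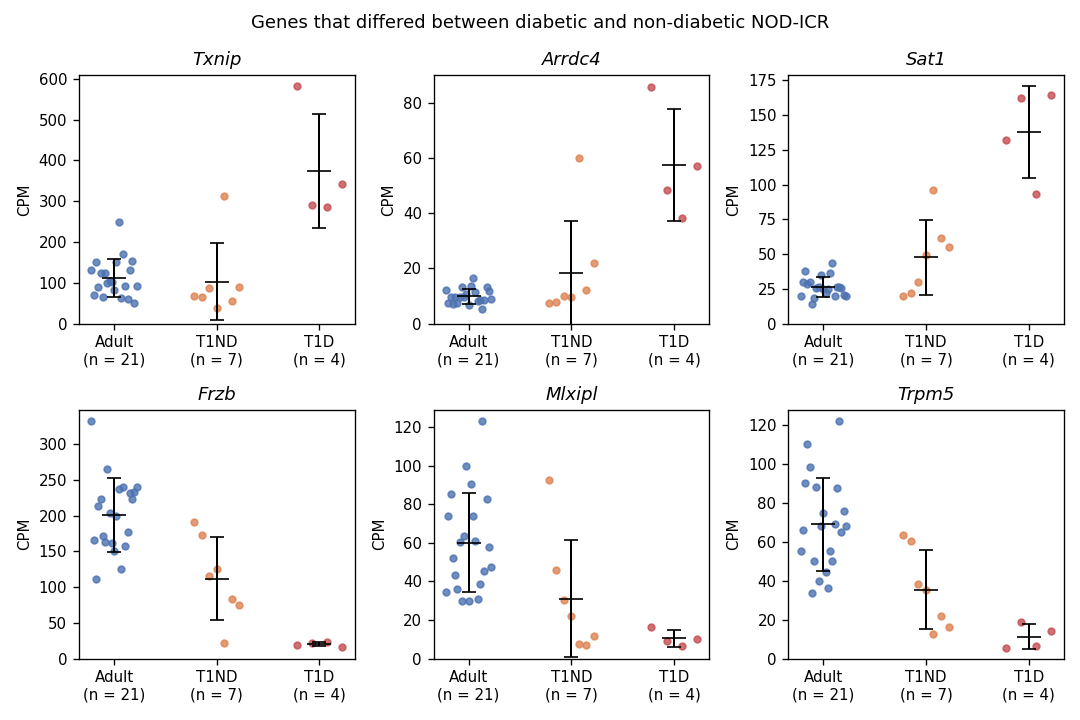
CPM of 6 genes called between T1D and T1ND in each library (points) of Adult, T1ND and T1D, with the group mean and SD (black bars). T1ND 5, the T1ND library with 313 CPM of Txnip and 21.1 CPM of Frzb, lies nearest to the T1D values in those panels.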

How the data were processed

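RNA of sorted β cells, 63 libraries in all, was made into SMART-Seq v4 and Nextera XT libraries, per the labels' protocols, after Qiagen or TRIzol extraction. The submitters' processing notes name bcl2fastq 2.20.0.422, Bowtie 1.2.2, RSEM 1.3.0 and mm10. The authors deposited expected counts per gene (20306 genes, 48.5% of values not whole), which were rounded here. The deposited normalized table was not used. Samples were grouped by their labels, and nothing was pooled. edgeR 4.0.16 (R 4.3.3) fitted TMM-scaled counts of all 63 libraries with 9 group means and an extraction term, after filterByExpr (16092 genes kept), by a robust quasi-likelihood test with Benjamini-Hochberg adjustment over all genes kept. All adjusted p-values are from this two-sided test unless another is named. The test was tested on simulated data. DESeq2 1.42.0 and limma 3.58.1 (voom) were alternatives, beside other scalings, filters, terms and left-out libraries. Nothing in the labels says more on the source of replicates than 1 animal number each, and p-values measure the spread between these libraries. Counts carry no molecular identifiers, so read depth does not count molecules.

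Named genes were the largest changes overall and among abundant genes, in each list no more than 4 called genes, taken by adjusted p, genes near 0 in 1 strain, the largest changes shared with T1D against T1ND, and a fixed list of known genes; the text gives a subset. Members, gene lists and rules were chosen with earlier results of these data known. Gene lists held 632 genes, of which 625 were in the table.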

Additional observations from a re-analysis of the deposited data

Results flagged for a closer look

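In 10 of 119 groups of values tested, the highest or lowest library stood apart from the rest of its group by Dixon's criterion, which chance meets in about 1 in 20 groups. T1D 3 stood high in Ifnar2 (82.1 CPM), Ly6e (867 CPM), Reg2 (413 CPM) and Spp1 (9630 CPM). T1D 1 stood high in Vcam1 (85.8 CPM) and in the share of erythroid and platelet markers (0.00247% of counts), and low in Aldoc (3.11 CPM). T1D 2 stood high in Bid (13.5 CPM) and low in Kcnh2 (6.9 CPM). T1ND 3 stood high in the share of endothelial markers (0.00667% of counts).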

How the results depend on the processing

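T1D against Adult changed in 5399 genes, T1D against T1ND in 206 and T1ND against Adult in 2231 of 16092, and the shares below are percent of the genes tested in each fit. At 2-fold or more the shares were 16.7% (10% higher, 6.74% lower), 0.665% and 7.84%. With the myeloid term they were 2.13% (1.27% higher, 0.851% lower), 0.00621% and 3.12%, with acinar and myeloid terms 2.45% (1.5% higher, 0.951% lower), 0.00621% and 3.28%, and with the T and NK cell term 8.07% (4.41% higher, 3.66% lower), 0.162% and 3.06%. TRIzol libraries alone gave 5.66% for T1D against Adult (3.75% higher, 1.91% lower). T1D 3 as the only T1D library, assumed to vary like the other groups, gave 5.81% (4.14% higher, 1.68% lower) and 0% against T1ND. Against Adult libraries within the T1D acinar range 9.77% of genes were lower in T1D, and T1ND against Adult gave 7.24%. Female animals gave 0.58% for T1D against T1ND and 6.37% for T1ND against Adult. T1D against T1ND gave 3.58% by DESeq2, 11.3% by voom, 0.491% without the extraction term, and 0% by edgeR with Qiagen libraries alone, with only the compared groups (0%) or with T1D 3 alone. An unadjusted p below 0.05 was found in 14.8, 14.7 and 6.33% of genes in these 3 fits. Leaving out 1 library at a time gave 25.7 to 34.3% for T1D against Adult (14.8 to 18.9% higher, 10.8 to 15.4% lower), 0.149 to 4.25% for T1D against T1ND and 10.1 to 15.5% for T1ND against Adult. The acinar and myeloid terms together, the acinar range and T1D 3 alone were chosen after seeing the data. Of 97 named genes followed through all fits, 91 were called, and 32 of them kept the call in every fit. Calls were lost in 56 with the myeloid term, 55 with both terms, 26 with the T and NK cell term, 19 in TRIzol libraries and 28 with T1D 3 alone. Direction reversed with the myeloid term in Lyz2 (-0.15), C1qc (-0.86), Nkx6-1 (0.02), Pax6 (0.03) and Fcgrt (-0.39). With both terms it reversed in Lyz2 (-0.24), C1qc (-0.88), Pdx1 (0.01), Nkx6-1 (0.05), Pax6 (0.04), Ldha (-0.19) and Fcgrt (-0.51). None of the reversed values was called (adjusted p of 0.156 to 0.996). Lyz2, C1qc, Cd68 and Aif1 are themselves part of the myeloid sum, so their lost calls follow from the term. For the other genes the cause was not tested. Without T1D 3 the acinar gene Try5 lost its call (adjusted p = 0.0533). No paired analysis was possible because the replicate numbers follow accession order and no animal is shared between the groups. With 4 diabetic animals, 1 of them TRIzol-extracted, single libraries moved the smaller counts.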

Other observations

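Some gene families were picked by symbol after their values were seen and are described without a test, beside 18.48% of all genes called higher and 15.07% called lower in T1D than in Adult. Subunits of the proteasome core, which degrades tagged proteins, stood at 18 of 19 higher and 0 lower in T1D than in Adult, median 0.81. The core members of smallest edgeR p were Psmb8, given above with the class I genes, Psmb9 and Psmb10. The proteasome cap had 15 of 21 higher and 0 lower in T1D than in Adult, median 0.50. Mitochondrial ribosomal proteins showed 51 of 78 higher and 0 lower in T1D than in Adult, median 0.51, and subunits of respiratory complex I 26 of 46 higher and 0 lower in T1D than in Adult, median 0.46. The Serpina3 protease inhibitors, which have close copies and can share reads, had 5 of 7 higher and 0 lower in T1D than in Adult, median 4.72.

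In other families more members were called lower than higher, and outside the histone deacetylases most members were not called. Zinc finger genes with a Zfp symbol had 14 of 371 higher and 83 lower in T1D than in Adult, median -0.39. Histone deacetylases showed 0 of 11 higher and 7 lower in T1D than in Adult, median -0.67, dynein and cilium genes 1 of 63 higher and 21 lower in T1D than in Adult, median -0.52, and synaptotagmins, calcium sensors of vesicle release, 1 of 16 higher and 5 lower in T1D than in Adult, median -0.52. Against T1ND, where 78 of 16092 genes were higher in T1D, 7 of 19 proteasome core subunits, 1 of 21 cap subunits, 6 of 78 mitochondrial ribosomal proteins, 1 of 46 complex I subunits and 0 of 7 Serpina3 genes were higher.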
